A study of Homo sapiens with 2 samples.

Results

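The miR-132/miR-212 cluster was followed through both arms of its hairpins in small RNA libraries of A549, a human lung adenocarcinoma cell line of epithelial origin. The 4 arms hsa-miR-132-3p, hsa-miR-132-5p, hsa-miR-212-3p and hsa-miR-212-5p were chosen by name, with the counts of these same libraries already known, so their values are given as a description and not as a test. All 4 were listed, among 859 mature miRNAs and 5475 small RNA features. A549 cells grown in DMEM with fetal calf serum were kept for 24 h at 20% oxygen (normoxia) or at 1.2% oxygen (hypoxia), and 1 library was sequenced for each condition. No difference between the conditions therefore has a replicate check. In normoxia 4514818 counts fell on mature miRNAs, and in hypoxia 8600160. Levels are given as CPM relative to this mature miRNA total, in which 1 count is worth 0.221 CPM in normoxia and 0.116 CPM in hypoxia. All intervals are exact 95% intervals unless stated otherwise. They cover the counting error of reads only, because the libraries were amplified by PCR without molecular identifiers and cultures were not repeated. Copies made by PCR count as separate reads, so the intervals can be too narrow even for the sampling of molecules.

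An animal miRNA is cut from a hairpin precursor, first by Drosha and then by Dicer, which leaves a duplex of a 5p and a 3p arm. Usually 1 arm is retained by an Argonaute protein as the guide, and bases 2 to 8 of that guide, the seed, direct it to messenger RNAs. miR-132 and miR-212 derive from neighbouring hairpins of a common primary transcript. They are best known from neurons, where the transcription factor CREB induces them upon activity. Outside the nervous system they have been studied in endothelial and immune cells.

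The mature sequences are shown because the 3p arms of both hairpins share a seed. They were taken from RefSeq (GRCh38.p14), in which all 4 names were found, and capitals mark bases 2 to 8.

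hsa-miR-132-3p: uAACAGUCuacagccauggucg

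hsa-miR-212-3p: uAACAGUCuccagucacggcc

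hsa-miR-132-5p: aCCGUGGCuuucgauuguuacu

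hsa-miR-212-5p: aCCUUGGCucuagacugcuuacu

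Both 3p arms carried the seed AACAGUC, which none of the other mature miRNAs with a listed sequence had at bases 2 to 8 (850 of the 859 had a sequence). Their first 9 bases were identical. Over the 21 bases that could be compared, 17 were the same and 4 differed. Counted from 1 at the 5′-end, with the base of miR-132-3p first, these were A10C, C14U, U17C and U20C. How the authors counted reads that fit both arms was not given in the sources used here, so the division of counts between miR-132-3p and miR-212-3p is uncertain to that extent. The 5p arms differed by 1 base within the seed, G4U, and no other listed miRNA had the bases 2 to 8 of either. Both 3p arms started with U, as did 38.8% of the listed mature miRNAs, and both 5p arms with A, as did 29.4%.

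The hairpins are shown to place both arms on their precursors, with the mature sequences in capitals (RefSeq, GRCh38.p14, minus strand).

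MIR132: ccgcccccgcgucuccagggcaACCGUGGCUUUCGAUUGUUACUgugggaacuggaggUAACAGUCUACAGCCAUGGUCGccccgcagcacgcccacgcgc

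MIR212: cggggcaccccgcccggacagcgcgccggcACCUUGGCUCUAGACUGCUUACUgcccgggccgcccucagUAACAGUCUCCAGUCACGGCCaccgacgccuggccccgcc

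In GRCh38 the MIR132 hairpin lies at chr17:2049908-2050008 and the MIR212 hairpin at chr17:2050271-2050380, both on the minus strand with 262 bases between them. In GENCODE version 29 no other gene overlapped them. The nearest annotated genes were HIC1, a transcriptional repressor gene on the opposite strand that starts 3773 bases away, and the lincRNA AC090617.5, 4939 bases away on the same strand. In the structure of lowest free energy predicted by RNAfold, 17 of the 22 bases of miR-132-3p and 16 of the 21 bases of miR-212-3p were paired to the 5p arm of the same hairpin. The count table gave hg19 positions, chr17:1953222-1953245 for miR-132-3p, chr17:1953258-1953281 for miR-132-5p, chr17:1953583-1953605 for miR-212-3p and chr17:1953621-1953645 for miR-212-5p. Each of these regions is the mature sequence with 1 more base on both sides.

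All 4 arms were detected in both libraries, and all 4 had more CPM in hypoxia than in normoxia. miR-132-3p, the guide for which the cluster is best known, was the most abundant member, with 300 counts in normoxia and 1062 in hypoxia. These correspond to 66.4 CPM (interval 59.1 to 74.4) and 123 CPM (116 to 131), a 1.86-fold higher level in hypoxia (interval of the ratio 1.63 to 2.12). The intervals of both libraries did not overlap. miR-212-3p, which shares the seed, had 113 counts in normoxia and 341 in hypoxia. Its level was 25.03 CPM (20.6 to 30.1) in normoxia and 39.7 CPM (35.6 to 44.1) in hypoxia, 1.58-fold higher (1.28 to 1.98), again without overlap of the intervals.

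The 5p arms were far less abundant. miR-132-5p had 32 counts in normoxia and 96 in hypoxia, or 7.09 CPM (4.85 to 10.0) and 11.2 CPM (9.04 to 13.6). Its intervals overlapped between the libraries, while the interval of the ratio, 1.57 (1.05 to 2.43), lay just above 1 with total mature counts as the scale. miR-212-5p, the least abundant member, had 10 and 36 counts, or 2.21 CPM (1.06 to 4.07) and 4.19 CPM (2.93 to 5.80). Its ratio of 1.89 had an interval of 0.919 to 4.27, so a difference for this arm was not detectable at this depth.

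**Figure D1:**
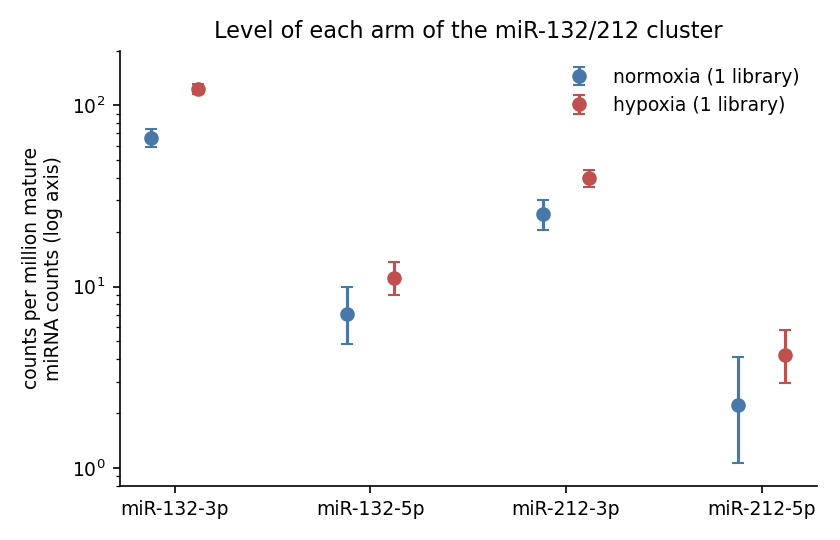
Level of each arm of the miR-132/miR-212 cluster in CPM of mature miRNA counts (log axis), with 1 library per condition. Points are CPM and bars are exact 95% intervals for counting error. Each arm sits higher in hypoxia, and both 3p arms lie above the 5p arms, with miR-132-3p highest at 66.4 and 123 CPM.

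The order of the levels was the same in both libraries, miR-132-3p above miR-212-3p, miR-132-5p and miR-212-5p, and within a library the intervals of neighbours in this order did not overlap. The mature sequences are 21 to 23 bases long, so the levels were not divided by length. By count, miR-132-3p ranked 177 of the 859 mature miRNAs in normoxia and 135 in hypoxia. miR-212-3p ranked 238 and 208, miR-132-5p 347 and 315, and miR-212-5p 461 and 412. Every member thus stood nearer to the top in the hypoxia library.

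Taken as a whole the cluster gave 455 counts in normoxia and 1535 in hypoxia. This is 101 CPM (91.7 to 110) and 178 CPM (170 to 188), a 1.77-fold higher share (1.59 to 1.97), and 0.0101% and 0.0178% of all mature miRNA counts. The pool with the seed AACAGUC, the sum of both 3p arms, went from 91.5 CPM (82.9 to 101) to 163 CPM (155 to 172). The sum of both 5p arms went from 9.30 CPM (6.70 to 12.6) to 15.3 CPM (12.8 to 18.2), and its ratio of 1.65 had an interval of 1.16 to 2.39. These levels are shares of a mature total of which miR-21-5p held 72.2% in normoxia and 68.4% in hypoxia. In RNA from whole cultures, more cells with these miRNAs, more copies per cell and fewer copies of other miRNAs cannot be told apart.

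To place these values among all miRNAs, hypoxia was divided by normoxia on the log2 scale after adding a prior count of 2, which shrinks the ratio of low counts. This log2 ratio was 0.89 for miR-132-3p, 0.66 for miR-212-3p, 0.63 for miR-132-5p and 0.83 for miR-212-5p. A size rule was applied in place of a test, by which a miRNA was called higher at a log2 ratio of 0.9 or more and lower at -0.9 or less, provided that its mean log2 CPM exceeded 3. Of the 4 members, 3 passed the filter on the mean, miR-132-5p only through its level in hypoxia, and miR-212-5p did not. None of these 3 passed the size rule, against 3.54% of the 339 miRNAs past the filter that were higher by it (12 miRNAs) and 3.24% that were lower (11 miRNAs). miR-132-3p lay immediately below the threshold, next to miR-941 at 0.90 (unrounded just below 0.9) and miR-130b-5p at 0.88. Of the alternatives tried, only the thinning of the deeper library to the depth of the other, done in a single draw, put it past the rule. It was then at 0.92, a move within counting error, against 0.70 to 0.82 under the other scalings.

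Among the 339 miRNAs past the filter, 13 had a larger log2 ratio than miR-132-3p (3.83%), 31 than miR-212-3p (9.14%) and 34 than miR-132-5p (10.0%). Over the 4 members, filtered or not, the median log2 ratio was 0.75, against 0.09 over the 859 listed miRNAs, of which 60.2% had a ratio above 0. The 4 arms come from hairpins of a common transcript, so this median does not summarise 4 independent values. Over the 339 miRNAs past the filter the median was 0.08 with quartiles of -0.22 and 0.38. The largest of the 339 ratios was that of miR-210, the miRNA best known to be induced by hypoxia, which had 4307 counts in normoxia and 22849 in hypoxia, 2.79-fold more CPM (2.70 to 2.88). The cluster therefore moved in the direction of miR-210 with a smaller ratio.

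**Figure D2:**
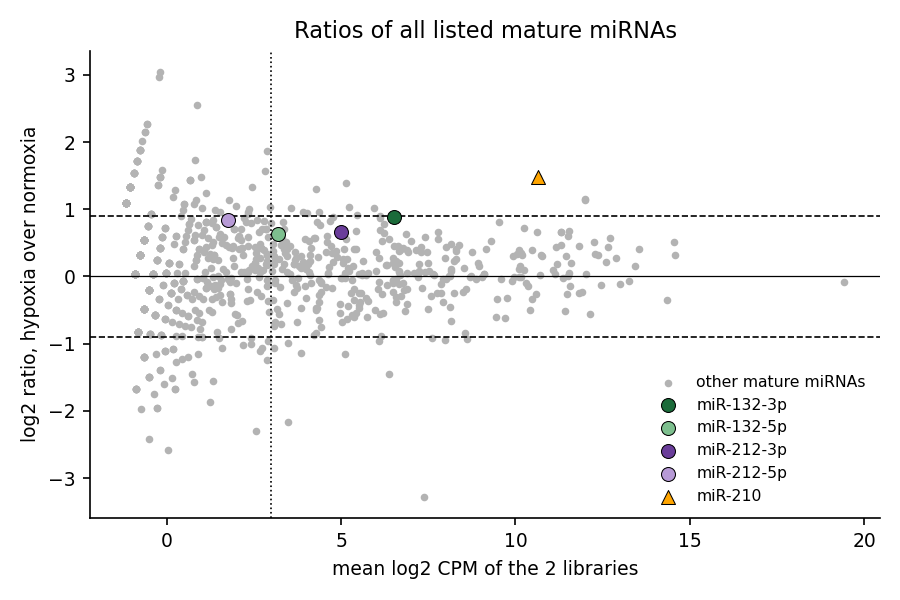
Log2 ratio of hypoxia over normoxia (vertical) against the mean log2 CPM of both libraries (horizontal) for the 859 listed mature miRNAs, each from 1 library per condition. Dashed lines mark log2 ratios of 0.9 and -0.9, and the dotted line a mean log2 CPM of 3. The 4 arms of the cluster lie between 0.63 and 0.89, on the upper side of the grey points, with miR-210 above them.

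The direction of the members did not depend on the scaling. With TMM factors, DESeq2 size factors, totals without the most abundant miRNAs or totals of all features, the log2 ratio was above 0 in all 4 arms, from 0.70 to 0.82 for miR-132-3p, 0.46 to 0.59 for miR-212-3p, 0.44 to 0.57 for miR-132-5p and 0.66 to 0.77 for miR-212-5p. Each of these scalings lowered the ratio of every arm, by 0.07 to 0.20 in the scale itself. The lower limit of the ratio of miR-132-5p is 0.06 on the log2 scale, so its interval includes no change under each of them. The low ends came from the totals without the most abundant miRNAs, under which the median of the 339 miRNAs moved from 0.08 to -0.12. Under TMM it moved to -0.03, and 8 miRNAs were higher and 15 lower by the size rule (34.8% of the calls higher, against 52.2% with total counts).

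**Figure D3:**
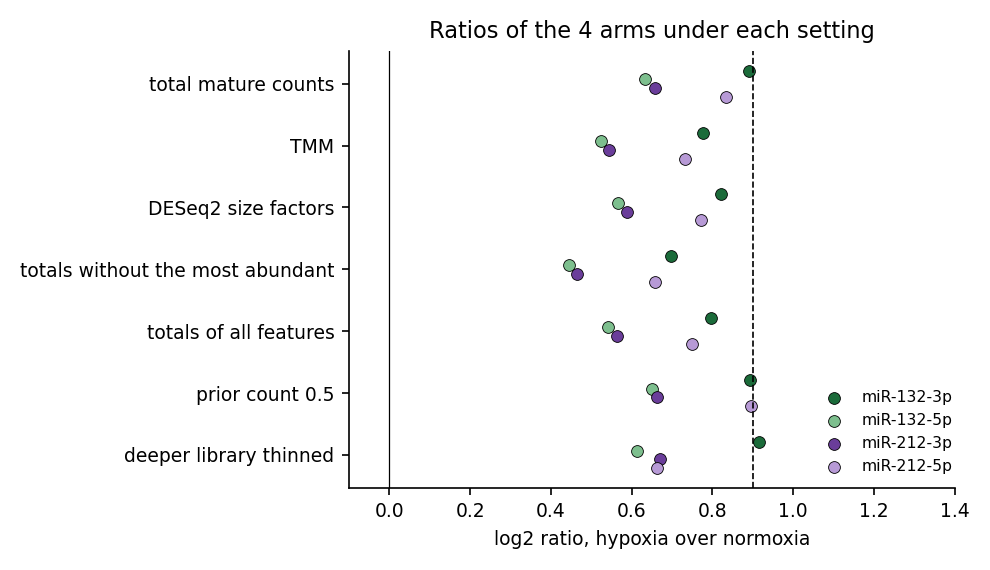
Log2 ratio of hypoxia over normoxia (horizontal) of the 4 arms under each scaling, with another prior count and with the deeper library thinned (vertical), from 1 library per condition. The dashed line marks 0.9. All points lie above 0, and only miR-132-3p in the thinned library, at 0.92, lies past the dashed line.

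The arms of a hairpin were compared by the share of its counts that fell on the 3p arm, which no scaling can change. In miR-132 the 3p arm held a share of 90.4% (interval 86.7% to 93.3%) in the normoxia library and of 91.7% (90.0% to 93.2%) in the hypoxia library. In miR-212 it took 91.9% (85.6% to 96.0%) and 90.5% (87.0% to 93.2%). There were thus 9.38 and 11.1 counts of miR-132-3p for each count of miR-132-5p, and 11.3 and 9.47 counts of miR-212-3p for each count of miR-212-5p. The hairpins could not be told apart by this share, as their intervals overlapped in both libraries.

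The difference in log2 ratio between the arms, 3p minus 5p, was 0.26 for miR-132 (standard error from counting 0.31) and -0.18 for miR-212 (0.54). Approximate 95% intervals of these differences were -0.35 to 0.86 and -1.23 to 0.88. Both include 0, so a difference between the arms was not detectable at this depth. For miR-212, whose 5p arm had 10 counts in normoxia, the sign turned when the deeper library was thinned (0.0072).

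For comparison, 151 other hairpins had both arms listed by name and at least 20 counts in each library. The 3p arm was the more abundant one in both libraries in 60 of them (39.7%), the 5p arm in 87, the more abundant arm changed in 3, and 1 had equal counts on both arms in normoxia. The more abundant arm held a median of 94.7% of the counts in normoxia and 94.2% in hypoxia. Its share was larger than that of miR-132-3p in 91 hairpins in normoxia and 85 in hypoxia, and larger than that of miR-212-3p in 85 and 91. Both hairpins of the cluster thus lay below the median in the dominance of their main arm. The 3p share moved between the libraries by 1.35 percentage points in miR-132 and by -1.42 in miR-212, against a median absolute move of 1.46 in the other hairpins.

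**Figure D4:**
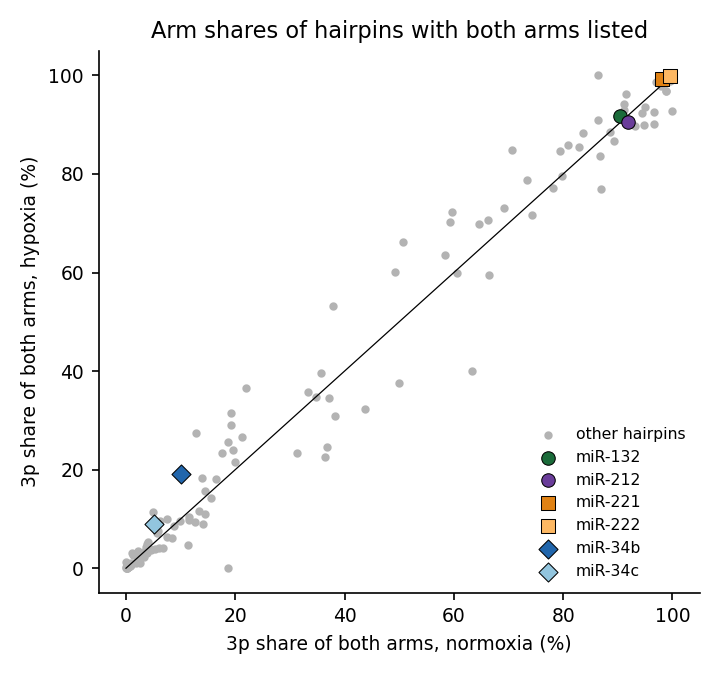
Share of a hairpin's counts on its 3p arm in hypoxia (vertical, %) against normoxia (horizontal, %), for 153 hairpins with both arms listed and at least 20 counts per library. The line marks equal shares. miR-132 and miR-212 lie close together beside the line, between 90.4% and 91.9% in both libraries, miR-221 and miR-222 closer to 100%, and miR-34b and miR-34c at the 5p end above the line.

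The hairpins were next compared with each other. miR-132 contributed 73.0% of the cluster (68.6% to 77.0%) in the normoxia library and 75.4% (73.2% to 77.6%) in the hypoxia library. For each count of miR-212-3p the normoxia library held 2.65 of miR-132-3p (2.13 to 3.33) and the hypoxia library 3.11 (2.75 to 3.53). The log2 ratios of both 3p arms differed by 0.23 (standard error from counting 0.18, approximate interval -0.12 to 0.59). Between the 5p arms the proportion was 3.20 (1.53 to 7.30) and 2.67 (1.80 to 4.03). The intervals of both proportions overlapped between the libraries.

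The miR-221/miR-222 and miR-34b/miR-34c hairpins, other pairs of neighbouring hairpins of a family, were set beside the cluster. miR-221/miR-222, which act on cell-cycle inhibitors among other targets, gave 4060 CPM in normoxia and 7757 CPM in hypoxia. In this pair each count of miR-222-3p was matched by 2.22 of miR-221-3p in normoxia (2.15 to 2.29) and 3.74 in hypoxia (3.67 to 3.81). The 3p arm of miR-221 was 2.21-fold higher in hypoxia (2.16 to 2.25), but its 5p arm was 0.765-fold (0.647 to 0.905). For miR-222 the 3p arm was 1.31-fold (1.27 to 1.35). Its 5p arm, with 20 counts in normoxia and 21 in hypoxia, was 0.551-fold with an interval that includes 1 (0.284 to 1.07). The miR-34b/miR-34c pair, effectors of p53, gave 252 CPM and 238 CPM, a sum of arms with opposite ratios. miR-34b-5p was 0.701-fold in hypoxia (0.631 to 0.779) and miR-34c-5p 1.15-fold (1.024 to 1.29), while miR-34b-3p was 1.49-fold (1.13 to 1.99) and miR-34c-3p 2.10-fold (1.32 to 3.48). The interval of miR-34c-5p lay just above 1 with total mature counts as the scale, and it includes no change under each of the other scalings. That of miR-34b-3p includes no change under the totals without the most abundant miRNAs. The proportion of miR-34b-5p to miR-34c-5p went from 1.44 (1.27 to 1.64) to 0.880 (0.801 to 0.968).

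The 3p minus 5p difference in log2 ratio was 1.53 for miR-221 (approximate interval 1.29 to 1.76), 1.18 for miR-222 (0.29 to 2.06), 1.08 for miR-34b (0.655 to 1.502) and 0.83 for miR-34c (0.15 to 1.51). These 4 intervals lie above 0, although miR-222 and miR-34c did not have both arms past the filter. Over the 72 hairpins outside the cluster with both arms past the filter, the median absolute difference was 0.42. A difference between them and the cluster in this value was not tested.

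In these pairs, unlike miR-132/miR-212, the intervals of the hairpin proportion did not overlap between the libraries. The difference in log2 ratio between the hairpins' main arms was 0.75 (approximate interval 0.70 to 0.80) for miR-221-3p minus miR-222-3p and -0.71 (-0.93 to -0.49) for miR-34b-5p minus miR-34c-5p. Both intervals lie outside that of miR-132-3p minus miR-212-3p, although the depth of the pairs differs and the spread between cultures is unknown.

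The mature miRNAs nearest to each 3p member were found by Euclidean distance of log2 CPM over the 2 libraries, which is a likeness of level more than of response. Nearest to miR-132-3p were miR-30a-3p (68.2 and 100 CPM, distance 0.30), miR-589-5p (77.3 and 107 CPM, 0.30) and miR-23a-3p (85.1 and 117 CPM, 0.36). Nearest to miR-212-3p were miR-101-5p (29.02 and 38.5 CPM, distance 0.22), miR-4270 (28.8 and 42.7 CPM, 0.23) and miR-29c-5p (24.8 and 32.4 CPM, 0.29).

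Lists of miRNAs that mark cell types were read in the same libraries. The 6 epithelial miRNAs of the miR-200 family and miR-205 were all listed, at a summed level of 1168 CPM in normoxia and 1362 CPM in hypoxia. miR-200b-3p was the most abundant of them at 880 and 1085 CPM, and miR-200a-3p followed at 132.5 and 137.9 CPM. miR-429 was at 91.5 and 87.4 CPM, miR-141-3p at 37.2 and 25.5 CPM (log2 ratio -0.54), and miR-200c-3p at 24.1 and 24.8 CPM. miR-205-5p, a marker of basal epithelial cells, was near the floor with 12 and 15 counts. None of the 5 epithelial miRNAs past the filter passed the size rule, and their median log2 ratio was 0.04.

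Because miR-132 and miR-212 are best known from neurons, 10 miRNAs enriched there were read as well. Of these, 8 were listed, at a summed level of 2054 CPM in normoxia and 2023 CPM in hypoxia, and miR-138-5p was the most abundant at 1059 and 1184 CPM. miR-124-3p, the miRNA most typical of neurons, had 3 and 6 counts, and miR-153-3p and miR-129-5p were not listed. Among the 7 past the filter the median log2 ratio was 0.07, none was higher by the size rule and miR-7-5p was lower (541 and 284 CPM, log2 ratio -0.93).

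Of 6 blood-cell miRNAs 4 were listed, at 19.9 and 23.4 CPM in all, nearly all of it miR-451a at 18.2 and 22.2 CPM, while miR-223-3p was not listed and miR-142-3p had 5 and 6 counts. The endothelial miR-126-3p and miR-126-5p summed to 221.7 and 220.9 CPM, with miR-126-3p at 179 and 190 CPM and miR-126-5p at 42.5 and 31.4 CPM, and their median log2 ratio was -0.18. Of 3 muscle miRNAs only miR-133a was listed, with 0 counts in normoxia, for which a limit of 3 counts corresponds to 0.664 CPM, and 18 in hypoxia. The liver miRNA miR-122-5p had 4 counts in each library. None of the summed levels except that of muscle changed by as large a proportion upward as the miR-132/miR-212 cluster. Their part in the ratio of the cluster was not tested.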

How the data were processed

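Small RNA libraries of A549 cells in normoxia and hypoxia, with 1 library per condition, were prepared by ligation for the SOLiD platform, size-selected and amplified by PCR. The deposited table holds whole-number counts for each feature that were not normalized (6449337 counts in normoxia and 13115226 in hypoxia). The submitters' processing notes give hg19. Aligner, counting rule and annotation version are not given in the sources used here. Every listed mature miRNA had at least 3 counts over both libraries.

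Counts were divided by the total of the 859 mature miRNAs. Shares have exact Clopper-Pearson intervals and ratios exact conditional binomial intervals (95%). Log2 ratios used a prior count of 2 scaled to library size. Intervals of differences between log2 ratios are normal approximations from the counts. No test was made and no p-value is given, because nothing measures the spread between cultures. Alternatives were TMM (edgeR version 4.0.16), DESeq2 version 1.42.0 size factors, other totals, a prior count of 0.5, thinning, no filter and a threshold of 1. R version 4.3.3, Python version 3.11.15, scipy version 1.17.1 and RNAfold version 2.7.2 were used. The code for the ratio, size rule and intervals was run on simulated counts that held counting error alone. That run says nothing about PCR copies or the spread between cultures.

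The rule for named miRNAs took the members, other features of both hairpins, miRNAs of the same seed, the 3 nearest in level to each 3p arm, the arms of miR-221, miR-222, miR-34b and miR-34c, miR-210 and the marker lists. Members of the cluster, lists and thresholds were chosen with earlier results of these data known. miR-941 and miR-130b-5p were named after their values were seen.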

Additional observations from a re-analysis of the deposited data

How the results depend on the processing

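No paired analysis was possible because there was a single library of normoxia and of hypoxia, and no library could be left out. Of 54 alternative values for 15 results, 43 stayed within counting error of the reported value or within 1.5 times the reported count, 10 moved further and 1 changed sign. With totals that leave out the 11 miRNAs among the 10 most abundant of either library, the log2 ratio of miR-132-3p was 0.70, 5 miRNAs were higher by the size rule and 18 lower (in place of 12 and 11). Without the filter, 113 were higher and 64 lower, as 859 miRNAs were then considered, and a threshold of 1 gave 6 lower. The cluster's 101 and 178 CPM became 70.5 and 117 when divided by every count of the table, and 651 and 1007 without the most abundant miRNAs, by construction. The arm difference of miR-212 went from -0.18 to 0.0072 upon thinning of the deeper library. The cause was not tested, except where the number of miRNAs or the denominator sets it. Depth limits miR-212-5p, with 10 and 36 counts, most.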

Other observations

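The complete MIR132 hairpin was also listed as a feature of its own, under 2 transcript identifiers of different type (miRNA and lincRNA) with the same sequence and position, chr17:1953202-1953302 in hg19. Each entry had 3 counts in normoxia and 2 in hypoxia. No direction can be read from so few counts. The hairpin of MIR212 was not among the listed features. Within 10 kb of the mature arms on either side there were 3 listed features besides the arms, these 2 entries included, none with more than 5 counts over both libraries.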
